A study of Homo sapiens with 6 samples.

Results

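The solute carriers of the plasma membrane and of organelle membranes were followed in cells that over-expressed *USF1*. The members were the genes whose platform symbol begins with SLC and a number. The mitochondrial SLC25A carriers (35 measured genes) and 5 further measured carriers, *SLC2A1*, *SLC2A3*, *SLC7A5*, *SLC3A2* and *SLC7A11*, were left out, as *SLC16A3* would have been, and where a gene had several probesets the one with the highest mean over the 6 arrays stood for it. This gave 144 of 9584 named genes, carried by 215 of 16569 probesets. They fell into 50 numbered families, and 137 encoded carriers. The other 7 share only the letters: the transcription factor *SLC2A4RG*, the adaptor protein gene *SLC4A1AP*, *SLC7A6OS* beside *SLC7A6*, the non-coding *SLC12A2-DT*, *SLC9A3-AS1* and *SLC9A3-OT1*, and the pseudogene *SLC71A3P*.

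Solute carriers are membrane proteins that move ions, nutrients and metabolites across a lipid bilayer, down a gradient or coupled to the gradient of another solute, without spending ATP directly. Families are numbered by sequence similarity, so that members of a family often share a substrate. Some carriers sit at the cell surface and others in the membranes of the Golgi, lysosomes or synaptic vesicles, and both can occur in 1 family. *USF1* encodes a basic helix-loop-helix leucine zipper transcription factor that binds E-box sequences, most strongly CACGTG.

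HEK293T, a line of human embryonic kidney cells in which the large T antigen of SV40 lets many plasmids replicate, was transiently transfected either with *USF1*, cloned from cDNA as its coding region, or with the empty plasmid, and total RNA was collected 48 hours afterwards. Both groups therefore received the plasmid backbone in cells that carry the T antigen. The groups are called USF1 and Empty vector and had 3 Affymetrix arrays each. The values are log2 RMA expression values as deposited, so a difference of 1 is a 2-fold change, and values of different probesets cannot be set against each other. The labels do not say whether replicates came from separate cultures, so a p-value here covers only how far these arrays spread, which may be technical. The log2 difference, USF1 minus Empty vector, was fitted with limma over all probesets with Benjamini-Hochberg adjustment over all of them, and genes with an adjusted p-value under 0.05 are said to have passed, risen or fallen. In total RNA of a whole culture, fewer cells that express a gene and less of its RNA per cell cannot be told apart.

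The array medians lay between 5.88 and 6.0. Empty vector replicate 1 stood apart: the SD over probesets of its difference from each of the other two Empty vector arrays was 0.336, against 0.182 between those arrays and 0.149 to 0.222 between USF1 arrays, and over the solute carriers alone the SDs were 0.220 and 0.222, against 0.183. The signal at the 5′ end of the actin control transcript minus that at its 3′ end was between -0.681 and -0.493 in USF1 arrays, and in Empty vector arrays it was -1.34, -1.04 and -0.516, lowest in replicate 1. This array had the lowest of the 6 array weights (0.409), and counts with it left out or weighted down are given with the results. The part of RNA quality in the results was not tested. The probeset of *USF1* itself read 4.76, 4.94 and 4.68 in USF1 arrays, against 4.37, 5.08 and 5.14 in Empty vector arrays (adjusted p-value = 0.836 from limma). Where this probeset lies in the transcript is not stated in the labels or the annotation, so whether it can read the transfected coding region was not tested. The study checked the over-expression at the protein level by western blot, which is outside the data used here. Of 11 markers of HEK293T cells 6 were measured, with vimentin (*VIM*) between 9.91 and 10.26 and the neurofilament *NEFM* between 10.07 and 10.58, and the median log2 difference of the 6 was 0.07. *INA* and *EYA1* fell (-0.39 and -0.41), though either call was lost when any 1 of several arrays was left out (4 arrays for *INA*, 3 for *EYA1*), and the other 4 did not pass (*NEFL* 0.15, *VIM* 0.15, *CDH2* 0.10 and *NEFM* 0.03). None of the markers listed for blood cells, fibroblasts, hepatocytes, adipocytes or endothelium was among the genes measured here.

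Of the 144 genes, 13 rose and 10 fell in USF1 cells, and 121 did not pass. The rising genes were led by the fatty acid carriers *SLC27A6* and *SLC27A2*, the zinc exporter *SLC30A1* and the aromatic amino acid carrier *SLC16A10*, and the falling genes by the amino acid carrier *SLC36A4*, the nucleoside carrier *SLC29A2* and the sugar carrier *SLC2A12*. The share that rose was 9.03%, against 5.19% of all named genes, and the share that fell was 6.94%, against 8.89%. The change of *SLC27A6* alone reached 2-fold. At an unadjusted p-value under 0.05, 24 of the 144 were higher, where 10.6% of named genes were, and 28 were lower, where 23.9% of named genes were. The methods' t-test, here with equal variances and also unadjusted, had 22 higher and 19 lower, against 9.7% and 19.8% of named genes. Counts by this test below also assume equal variances. The study's own list of changed genes gives fractional degrees of freedom, as a test with unequal variances does. That form had 20 higher and 18 lower here, without *SLC10A3* and *SLC36A4*.

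The median log2 difference over the solute carriers was 0.03, against -0.08 over all named genes, and 54.9% of them had a positive difference, against 36.6% of named genes. In 27 genes (18.8%, against 12.6% of named genes) each USF1 array lay above each Empty vector array, and in 26 (18.1%, against 27.5%) each lay below. When each array was first centred on its median, which takes away a general shift of -0.06, 20 rose and 9 fell, the background shares then being 7.35% and 5.9%. Without Empty vector replicate 1 the counts were also 20 and 9, with background shares of 6.35% and 7.35%. Both times all 13 rising genes and 9 of the 10 falling ones were again called, and *SLC39A11* was lost. With array weights 24 rose and 14 fell, against 8.76% and 15.9% of named genes, and all 23 calls were kept.

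**Figure D1:**
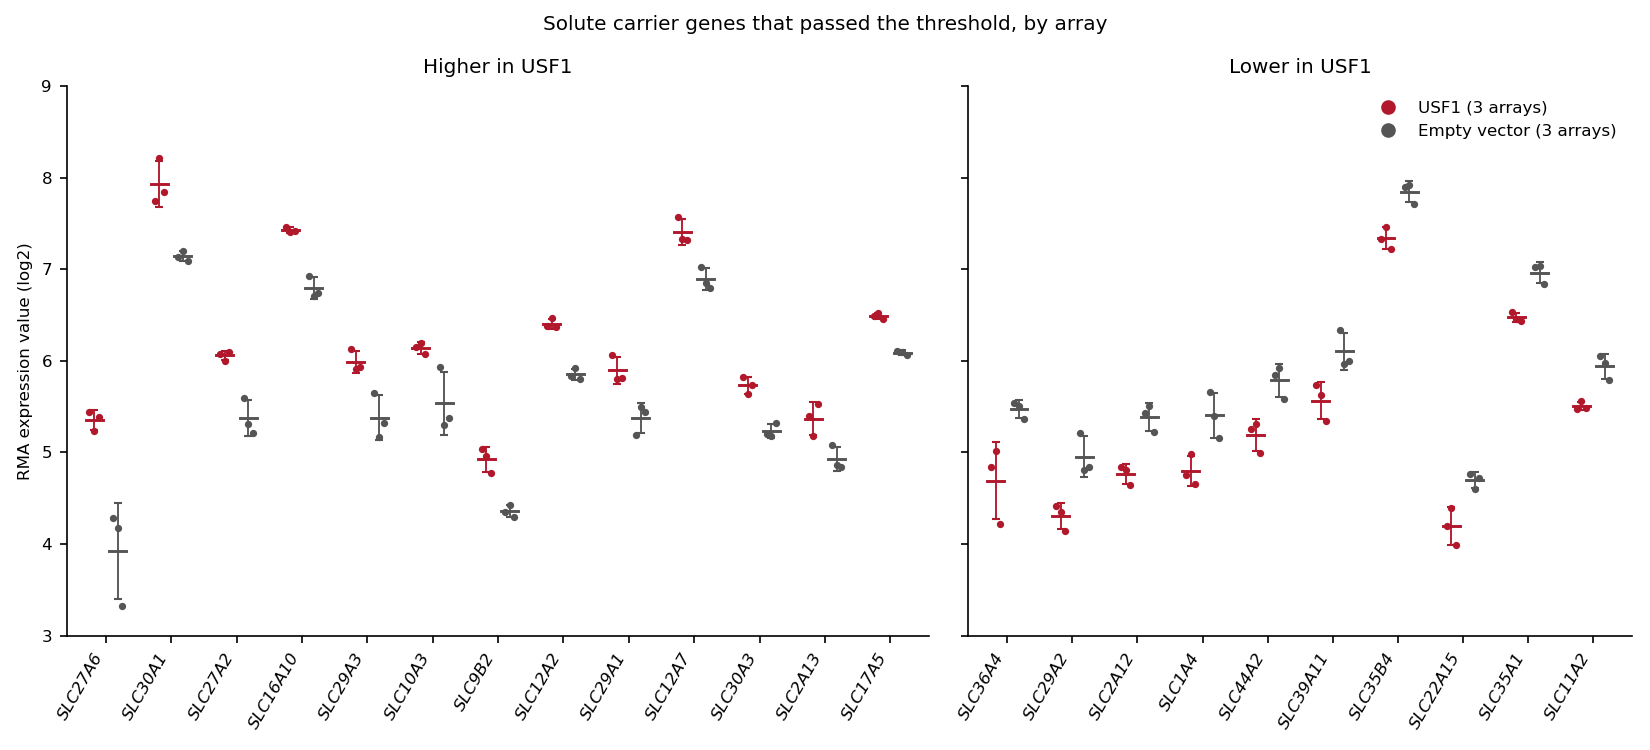
RMA expression values (log2) of the 13 solute carrier genes that rose (left) and the 10 that fell (right), with USF1 arrays in red and Empty vector arrays in grey. Points are arrays, thick bars are means and error bars are SDs over 3 arrays each. The arrays of the groups do not overlap in any of the 23 genes, and *SLC27A6* has the largest difference.

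E-boxes were looked up in a set of promoter windows at RefSeq (GRCh38.p14) transcription starts, to show the sequence that the over-expressed factor can bind. Each window held 300 bases, from 250 before to 50 after a start. The set had several windows for 45 of these genes and none for 22. A missing window does not mean that RefSeq gives no start. The motif was CACGTG, which reads the same on both strands. At least 1 window held it in 22 of the 122 solute carriers that have a window (18%), against 13.4% of 8067 measured genes, 8.77% of all 27305 genes with a window and 7.26% of all 35116 windows. It was present in 3 of 13 genes that rose, 1 of 9 that fell and 18 of 100 that did not pass. The called genes with the motif are shown first, 5′ to 3′ on the gene's strand with the E-box in capitals, followed by 2 uncalled genes that also hold it:
SLC12A7: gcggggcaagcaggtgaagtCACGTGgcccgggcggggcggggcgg
SLC29A1: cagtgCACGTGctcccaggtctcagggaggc
SLC2A13: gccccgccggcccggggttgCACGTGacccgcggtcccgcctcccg
SLC39A11: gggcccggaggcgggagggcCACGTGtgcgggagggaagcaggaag
SLC35A5: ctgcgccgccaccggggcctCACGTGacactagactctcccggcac
SLC36A1: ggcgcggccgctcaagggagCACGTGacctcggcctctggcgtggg

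The *SLC12A7* stretch is chr5:1112091-1112136 on the minus strand, with the first base of the motif 53 bases before the start. That of *SLC29A1* is chr6:44219365-44219395 on the plus strand, 245 bases before the start and cut short by the end of the window. In *SLC2A13* it is chr12:40106081-40106126 on the minus strand, 25 bases before the start, and in *SLC39A11*, the 1 falling gene with the motif, chr17:73092690-73092735 on the minus strand, 27 bases before it. *SLC35A5* (chr3:112561932-112561977, plus strand, 93 bases before the start) and *SLC36A1* (chr5:151447540-151447585, plus strand, 43 bases before the start) each hold a second E-box closer to the start, and their log2 differences were 0.03 and -0.01. The median log2 difference was 0.07 over the 22 genes with the motif, 12 of them positive, and 0.02 over the 100 without it, 53 of them positive. *SLC27A6*, *SLC30A1*, *SLC27A2* and *SLC16A10* had no CACGTG in their windows.

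The background for each class is the share of all named genes, 5.19% higher and 8.89% lower in limma. It was 10.6% and 23.9% at an unadjusted p-value under 0.05, and 9.7% and 19.8% by the methods' t-test. Among carriers of lipids, bile acids and choline, 3 of 13 rose and 1 fell, with a median log2 difference of 0.02. At an unadjusted p-value under 0.05, 3 were higher and 3 lower, and by the methods' t-test 3 and 2. The SLC27 family encodes the fatty acid transport proteins, which take up long-chain fatty acids and in part activate them to acyl-CoA. *SLC27A6* (FATP6) read 5.44, 5.24 and 5.39 in USF1 arrays, against 4.28, 4.18 and 3.33 in Empty vector arrays. Empty vector replicate 3 was the lowest of the 6, and a wide gap lay between the groups even without it. The difference of 1.43 (SE 0.22), a 2.69-fold change, was called (adjusted p-value = 0.00927 from limma), and without Empty vector replicate 3 it was 1.13. The mean of this probeset was among the lowest 25% of all probesets.

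*SLC27A2* (FATP2), which also works as a very-long-chain acyl-CoA synthetase of the peroxisome, had values of 6.07, 6.0 and 6.10 in USF1 arrays and 5.59, 5.31 and 5.21 in Empty vector arrays, apart in full. It rose by 0.69 (SE 0.11, adjusted p-value = 0.00997 from limma). The other 4 fatty acid transport proteins did not pass: *SLC27A1* differed by 0.12, *SLC27A3* by -0.14, *SLC27A4* by 0.02 and *SLC27A5*, the liver bile acyl-CoA synthetase, by -0.02. *SLC10A3*, numbered with the sodium/bile acid carriers, read 6.15, 6.20 and 6.07 in USF1 arrays, against 5.93, 5.30 and 5.38 in Empty vector arrays. Empty vector replicate 1 lay near the USF1 arrays, and the difference, 0.60 (SE 0.16, adjusted p-value = 0.0433 from limma), became 0.80 without it. Leaving out any of the other 5 arrays ended this call.

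The choline-like carrier *SLC44A2* fell. Its values were 5.26, 5.31 and 4.99 in USF1 arrays and 5.85, 5.93 and 5.58 in Empty vector arrays, without overlap, and the difference was -0.60 (SE 0.13, adjusted p-value = 0.0225 from limma). *SLC44A1*, a choline carrier of the plasma membrane, had 6.26, 6.09 and 6.24 in USF1 arrays, against 6.55, 6.42 and 6.46 in Empty vector arrays. These arrays also lay apart, but the difference of -0.28 did not pass (adjusted p-value = 0.0736 from limma), and *SLC44A5* differed by 0.02.

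Metal carriers formed the largest class, with 25 genes, of which 2 rose, 2 fell and 21 did not pass (median log2 difference -0.06). At an unadjusted p-value under 0.05, 3 were higher and 7 lower, and by the methods' t-test 3 and 4. Zinc is moved out of the cytosol by the SLC30 (ZnT) family and into it by the SLC39 (ZIP) family. *SLC30A1* (ZnT1), the zinc exporter of the plasma membrane, read 7.74, 8.21 and 7.84 in USF1 arrays and 7.13, 7.20 and 7.09 in Empty vector arrays. The Empty vector arrays were tight, and the lowest USF1 array lay well above them. The difference was 0.79 (SE 0.13, adjusted p-value = 0.00952 from limma).

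*SLC30A3* (ZnT3), which loads zinc into synaptic vesicles in neurons, had 5.82, 5.64 and 5.74 in USF1 arrays, against 5.21, 5.18 and 5.32 in Empty vector arrays. It rose by 0.50 (SE 0.09, adjusted p-value = 0.0148 from limma), with both groups tight. The remaining 5 measured ZnT genes ran from -0.32 (*SLC30A4*) to 0.01 (*SLC30A6*), and none of them passed in limma, although *SLC30A4* had a lower value in each USF1 array (5.62, 5.69 and 5.46) than in each Empty vector array (5.91, 6.0 and 5.82).

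Among 11 ZIP genes 1 passed. *SLC39A11* (ZIP11) read 5.73, 5.62 and 5.34 in USF1 arrays, against 6.34, 5.97 and 6.0 in Empty vector arrays. The groups did not overlap, with Empty vector replicate 1 the highest, and the difference was -0.54 (SE 0.14, adjusted p-value = 0.0401 from limma). No leave-out of a single array kept this call. *SLC39A6* (ZIP6) differed by 0.06 (8.65, 8.73 and 8.76 in USF1 arrays, against 8.62, 8.74 and 8.61 in Empty vector arrays), and the ZIP genes as a whole ran from -0.54 to 0.24.

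Of the iron carriers *SLC11A2* and *SLC40A1*, 1 passed. *SLC11A2* (DMT1), the proton-coupled carrier that brings ferrous iron through the apical and endosomal membrane, fell: 5.48, 5.56 and 5.48 in USF1 arrays, against 6.05, 5.98 and 5.79 in Empty vector arrays. The arrays lay apart and the difference was -0.43 (SE 0.10, adjusted p-value = 0.0254 from limma). *SLC40A1*, ferroportin, the iron exporter, had 4.29, 4.53 and 4.09 in USF1 arrays and 4.61, 4.78 and 4.56 in Empty vector arrays, and its -0.34 did not pass (adjusted p-value = 0.101 from limma). With a replicate block it was called lower. The copper carriers *SLC31A1* and *SLC31A2* differed by 0.02 and -0.06, and the magnesium carriers *SLC41A1* and *SLC41A3* by 0.30 and -0.06.

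All 3 measured nucleoside carriers, of the equilibrative SLC29 family, passed, and not in 1 direction. These proteins let nucleosides, and many nucleoside drugs, cross membranes in either direction. *SLC29A3* (ENT3), which serves lysosomes, rose with 6.13, 5.92 and 5.93 in USF1 arrays, against 5.65, 5.17 and 5.32 in Empty vector arrays (difference 0.61, SE 0.13, adjusted p-value = 0.0242 from limma). *SLC29A1* (ENT1), the main plasma membrane carrier of the family, rose with 6.06, 5.80 and 5.82 in USF1 arrays, against 5.19, 5.49 and 5.44 in Empty vector arrays (difference 0.52, SE 0.12, adjusted p-value = 0.0267 from limma). Both had arrays that did not overlap, and Empty vector replicate 1 was the highest of its group for *SLC29A3* and the lowest for *SLC29A1*. *SLC29A2* (ENT2), also at the plasma membrane, fell, with 4.42, 4.35 and 4.15 in USF1 arrays, against 5.22, 4.81 and 4.84 in Empty vector arrays (difference -0.65, SE 0.13, adjusted p-value = 0.0202 from limma). These calls leaned on single arrays. Those of *SLC29A1* and *SLC29A3* each held in 2 of the 6 fits with 1 array left out, and that of *SLC29A2* in 4. A second probeset of *SLC29A1* did not pass (0.14).

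**Figure D2:**
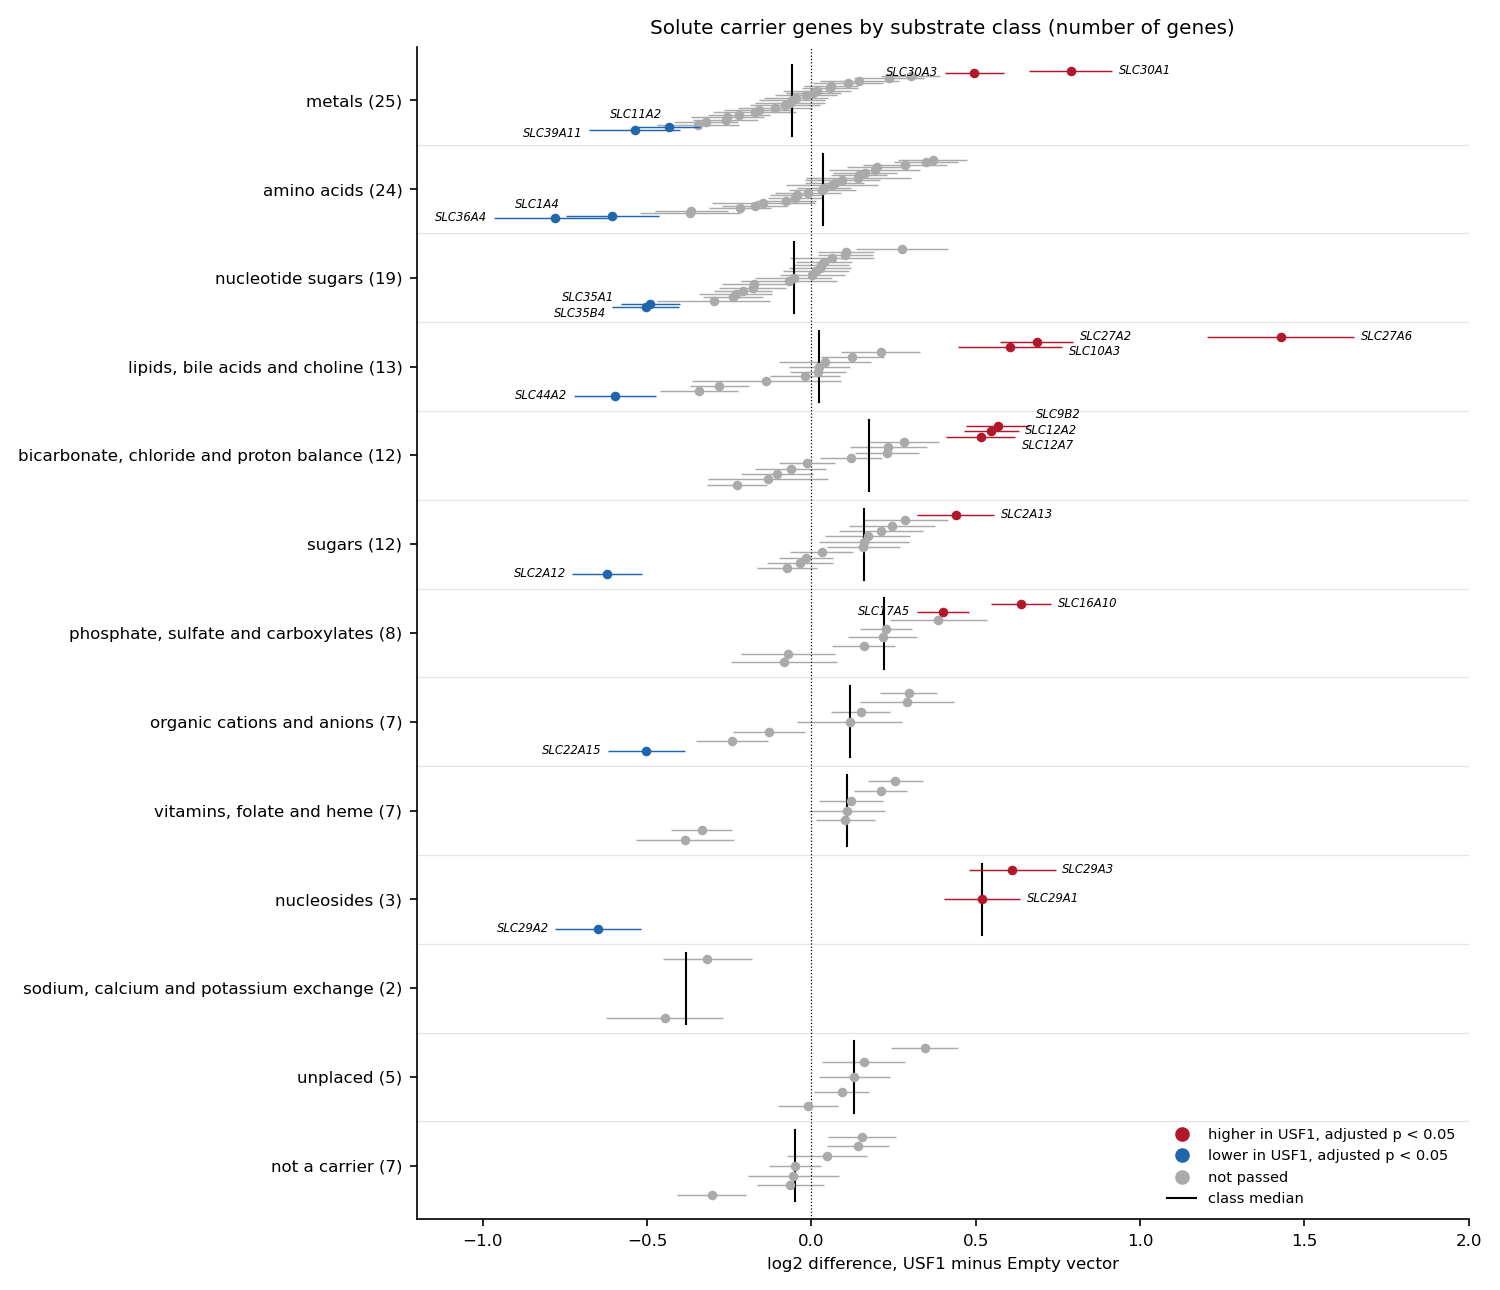
Log2 difference, USF1 minus Empty vector, of each of the 144 genes in its substrate class, with the number of genes in brackets. Points are genes, horizontal bars are standard errors, black ticks are class medians, red marks genes that rose, blue those that fell and grey those that did not pass; the 3 nucleoside carriers are the class with no grey point.

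Carriers that set chloride, bicarbonate and proton balance had 3 of 12 genes higher and 0 lower in limma (at an unadjusted p-value under 0.05, 5 higher and 1 lower; by the methods' t-test, 3 and 1), with a median log2 difference of 0.18. *SLC12A2* (NKCC1), which brings sodium, potassium and chloride into the cell and is a main route of volume recovery, read 6.38, 6.46 and 6.36 in USF1 arrays, against 5.84, 5.92 and 5.81 in Empty vector arrays. Both groups were tight and apart, and the difference was 0.55 (SE 0.08, adjusted p-value = 0.00825 from limma). *SLC12A7* (KCC4) carries potassium and chloride outward. It rose by 0.51 (SE 0.11, adjusted p-value = 0.0213 from limma), with 7.57, 7.33 and 7.32 in USF1 arrays and 7.03, 6.85 and 6.80 in Empty vector arrays, where replicate 1 was the highest array of each group.

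The sodium/proton exchanger *SLC9B2* had 5.04, 4.96 and 4.78 in USF1 arrays, against 4.35, 4.43 and 4.30 in Empty vector arrays. It rose by 0.57 (SE 0.10, adjusted p-value = 0.0121 from limma), and the arrays did not overlap. Of its distant relatives, *SLC9A9*, an exchanger of recycling endosomes, differed by -0.23 and *SLC9D1* by -0.01. *SLC26A11* had higher values in each USF1 array (7.54, 7.56 and 7.34) than in each Empty vector array (7.32, 7.27 and 7.16), but its 0.23 did not pass (adjusted p-value = 0.145 from limma). The carriers of the SLC4 family ran from -0.13 (*SLC4A2*) to 0.28 (*SLC4A11*).

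The class of phosphate, sulfate and carboxylate carriers, set by family number, had 2 of 8 genes higher and 0 lower in limma (at an unadjusted p-value under 0.05, 4 higher and 0 lower; by the methods' t-test, 3 and 0) and a median log2 difference of 0.22. *SLC16A10* (TAT1) belongs to the monocarboxylate family but carries aromatic amino acids and thyroid hormones. It read 7.46, 7.41 and 7.42 in USF1 arrays, against 6.93, 6.71 and 6.74 in Empty vector arrays. The USF1 arrays were nearly equal, and the difference, 0.64 (SE 0.09, adjusted p-value = 0.00686 from limma), had the smallest adjusted p-value of all 144 genes.

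*SLC17A5* (sialin), which releases sialic acid from lysosomes, had 6.49, 6.52 and 6.46 in USF1 arrays, against 6.11, 6.09 and 6.06 in Empty vector arrays. This was the smallest called rise, 0.40 (SE 0.08, adjusted p-value = 0.0187 from limma), with a narrow spread within either group. The phosphate carrier *SLC20A1* had 8.50, 8.44 and 8.45 in USF1 arrays and 8.20, 8.27 and 8.24 in Empty vector arrays. These values did not overlap, but the difference of 0.23 did not pass (adjusted p-value = 0.0935 from limma). The monocarboxylate carriers *SLC16A9* and *SLC16A14* differed by 0.39 and -0.07.

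The SLC35 family includes carriers that bring nucleotide sugars into the Golgi and the endoplasmic reticulum for glycosylation. Its 19 genes were placed in this class by family number, and which of them carry nucleotide sugars was not checked. Of the 19, 0 rose and 2 fell in limma (at an unadjusted p-value under 0.05, 0 and 4; by the methods' t-test, 0 and 4), with a median log2 difference of -0.05. *SLC35A1*, the carrier of CMP-sialic acid, read 6.53, 6.46 and 6.44 in USF1 arrays, against 7.02, 7.04 and 6.84 in Empty vector arrays. The groups lay apart, and the difference was -0.49 (SE 0.09, adjusted p-value = 0.0157 from limma). *SLC35B4*, which carries UDP-xylose and UDP-N-acetylglucosamine, had 7.33, 7.46 and 7.22 in USF1 arrays, against 7.90, 7.92 and 7.71 in Empty vector arrays (difference -0.50, SE 0.10, adjusted p-value = 0.0199 from limma), again with no overlap. The others ran from -0.30 (*SLC35D1*) to 0.28 (*SLC35A3*), and *SLC35A4* differed by -0.21 with its USF1 arrays (7.55, 7.69 and 7.60) below its Empty vector arrays (7.91, 7.79 and 7.77).

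Amino acid carriers numbered 24, with 0 higher and 2 lower in limma (at an unadjusted p-value under 0.05, 2 higher and 5 lower; by the methods' t-test, 3 and 3) and a median log2 difference of 0.04. *SLC36A4*, a proton-coupled family member that carries proline and tryptophan, read 4.84, 5.01 and 4.22 in USF1 arrays, against 5.54, 5.51 and 5.36 in Empty vector arrays. USF1 replicate 3 was far below the other USF1 arrays, and the difference, -0.78 (SE 0.19, adjusted p-value = 0.0324 from limma), the largest fall among the members, was -0.54 and no longer called without it. The call of *SLC36A4* was also lost without USF1 replicate 1, Empty vector replicate 2 or Empty vector replicate 3. *SLC1A4* (ASCT1), an exchanger of serine, alanine and cysteine, had 4.76, 4.98 and 4.66 in USF1 arrays, against 5.66, 5.39 and 5.16 in Empty vector arrays, without overlap. Its difference was -0.61 (SE 0.14, adjusted p-value = 0.0305 from limma).

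The related exchanger *SLC1A5* (ASCT2), a main glutamine carrier of growing cells, also had its USF1 arrays (7.70, 7.77 and 7.65) below its Empty vector arrays (8.07, 7.84 and 7.86), but by -0.22 and without passing (adjusted p-value = 0.157 from limma). The 8 SLC38 genes, sodium-coupled neutral amino acid carriers and their lysosomal relatives, did not pass and ran from -0.37 (*SLC38A12*) to 0.16 (*SLC38A9*). *SLC38A2* (SNAT2) had 9.78, 9.67 and 9.68 in USF1 arrays and 9.77, 9.77 and 9.74 in Empty vector arrays, which overlapped. *SLC7A1*, the cationic amino acid carrier CAT1, differed by -0.08. The leucine carriers *SLC43A1* and *SLC43A2* came closest to passing among those that were higher, with differences of 0.37 and 0.35 (adjusted p-values = 0.0544 and 0.0537 from limma), and both passed when Empty vector replicate 1 was left out.

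Of 12 sugar carriers 1 rose and 1 fell, both of the GLUT family (median log2 difference of the class 0.16). At an unadjusted p-value under 0.05 the counts were also 1 and 1, as they were by the methods' t-test. *SLC2A13* (HMIT), a proton-coupled carrier of myo-inositol rather than of hexoses, had 5.40, 5.18 and 5.53 in USF1 arrays, against 5.08, 4.86 and 4.84 in Empty vector arrays. The nearest arrays almost touched, and the difference was 0.44 (SE 0.12, adjusted p-value = 0.0453 from limma). *SLC2A12* (GLUT12), a glucose carrier, read 4.85, 4.81 and 4.65 in USF1 arrays, against 5.44, 5.51 and 5.22 in Empty vector arrays. It fell by 0.62 on the log2 scale (SE 0.11, adjusted p-value = 0.0121 from limma), with a wide gap between the groups. *SLC2A8* (GLUT8) differed by 0.21, and the glucose-6-phosphate carrier of the endoplasmic reticulum, *SLC37A4*, by -0.04. *SLC5A6*, in this class by its family number, carries biotin and pantothenate, and *SLC5A5* carries iodide; they differed by 0.03 and 0.29 and did not pass.

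Organic cation and anion carriers had 0 of 7 higher and 1 lower in limma (at an unadjusted p-value under 0.05, 1 and 1; by the methods' t-test, 1 and 1). *SLC22A15*, of the organic cation and carnitine family, read 4.20, 4.40 and 3.99 in USF1 arrays, against 4.77, 4.60 and 4.72 in Empty vector arrays. The groups lay apart, and the difference was -0.50 (SE 0.12, adjusted p-value = 0.0306 from limma). The carnitine carrier *SLC22A5* (OCTN2) had higher values in each USF1 array (5.76, 5.61 and 5.66) than in each Empty vector array (5.45, 5.31 and 5.38), with a difference of 0.30 that did not pass (adjusted p-value = 0.0589 from limma). *SLC18B1*, a vesicular polyamine carrier, differed by -0.13.

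In the other classes the main limma fit called 0 genes in either direction. Carriers of vitamins, folate and heme (7 genes, median 0.11) had 2 higher and 2 lower at an unadjusted p-value under 0.05 and 2 and 1 by the methods' t-test. *SLC48A1* (HRG1), which brings heme out of endosomes, was nearest to passing, with 4.90, 4.76 and 4.81 in USF1 arrays, against 5.28, 5.11 and 5.08 in Empty vector arrays (difference -0.33, adjusted p-value = 0.0512 from limma). *SLC19A1*, the reduced folate carrier, differed by 0.11. The calcium exchangers *SLC24A1* and *SLC8A1* differed by -0.45 and -0.32, with overlapping arrays, and both had an unadjusted p-value under 0.05, while the t-test called neither. With a replicate block *SLC24A1* was called lower (adjusted p-value = 0.0216 from limma), as was *SLC48A1*. Of 5 carriers whose family could not be placed by substrate, 1 was higher at an unadjusted p-value under 0.05 and by the t-test, *SLC75A1* with 0.34, and *SLC71A1* differed by 0.09. The 7 genes that are not carriers had a median of -0.05, and 1, *SLC2A4RG*, was lower at an unadjusted p-value under 0.05 and by the t-test (-0.30), while *SLC4A1AP* differed by 0.14.

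The calls leaned on single arrays to different degrees. *SLC27A6*, *SLC30A1*, *SLC16A10* and *SLC12A2* were called whichever array was left out, with differences of 1.13 to 1.60, 0.65 to 0.89, 0.59 to 0.71 and 0.52 to 0.58. *SLC27A2* was lost only without USF1 replicate 3 and *SLC9B2* only without USF1 replicate 1. Without USF1 replicate 1, 5 genes rose and 1 fell (background 1.6% and 1.76% of named genes). Without USF1 replicate 3, 5 rose and 0 fell in limma (background 1.67% and 1%), while 22 were higher and 15 lower at an unadjusted p-value under 0.05. No share over all named genes was computed for the unadjusted counts of that fit. The counts were 6 and 1 without Empty vector replicate 2 (background 2.05% and 1.98%), and 7 and 9 without Empty vector replicate 3 (background 2.85% and 4.99%). Without USF1 replicate 2 the counts were 13 and 11 (background 4.71% and 10.7%). The 23 called genes kept their sign under each of these.

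**Figure D3:**
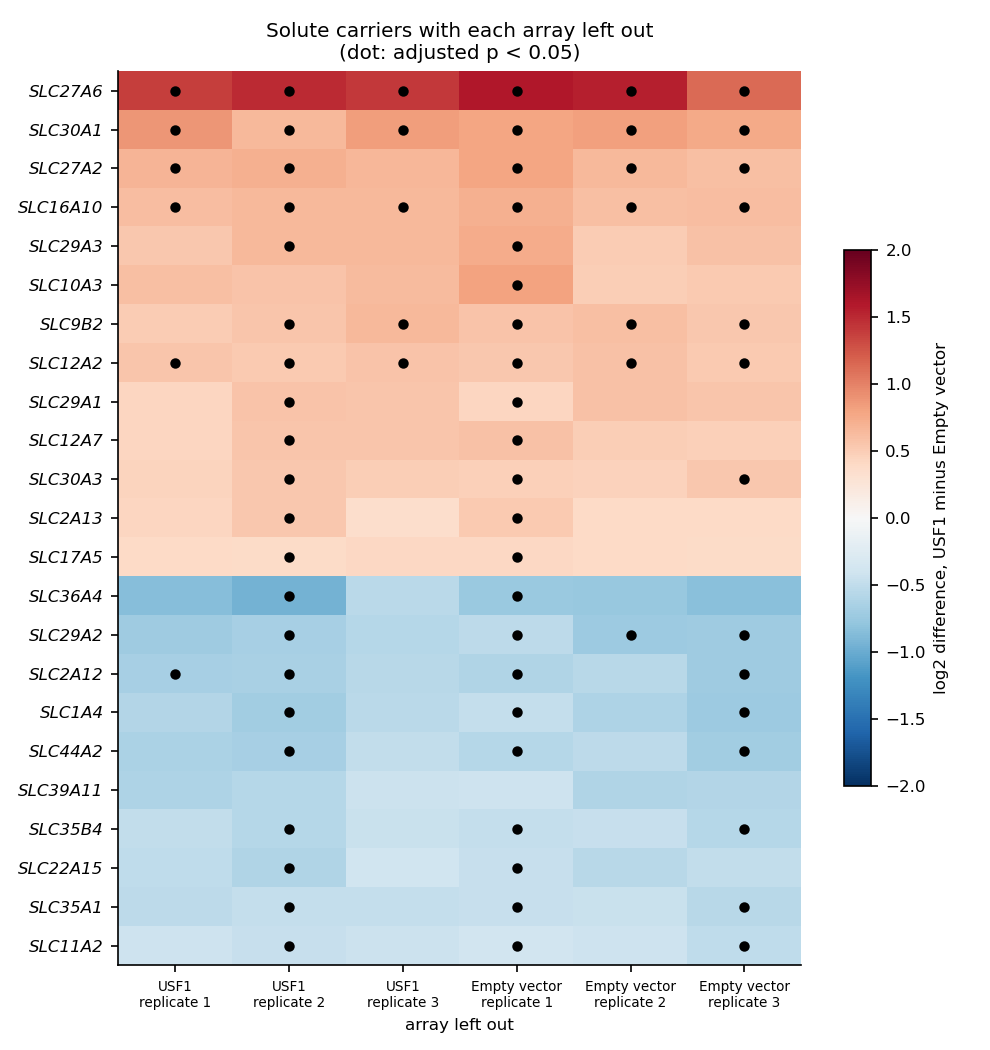
Log2 difference, USF1 minus Empty vector (colour), of the 23 solute carriers that passed, with each of the 6 arrays left out in turn (columns). A dot marks an adjusted p-value under 0.05 in that fit; *SLC27A6*, *SLC30A1*, *SLC16A10* and *SLC12A2* have a dot in each column, *SLC10A3* in 1 and *SLC39A11* in none.

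Several probesets were present for 53 genes, at most 5 for a gene, and 91 had 1. Both probesets passed for *SLC27A2* (0.69 and 0.96), *SLC30A1* (0.79 and 0.73) and *SLC12A2* (0.55 and 0.55). In 10 genes the calls differed between probesets. *SLC16A10* and *SLC17A5* had a second probeset with a larger difference that did not pass, 0.96 and 0.49, and in each the Empty vector replicate 1 value, 3.57 and 4.56, lay below the other two Empty vector arrays (5.33 and 5.02 for *SLC16A10*, 5.15 and 5.14 for *SLC17A5*). The same array was low at the second probeset of *SLC26A2*, which read 6.24, 5.65 and 6.01 in USF1 arrays, against 3.41, 5.89 and 5.86 in Empty vector arrays.

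The second probeset of *SLC29A1* differed by 0.14 and did not pass, so its rise rests on 1 of 2. The other probesets of *SLC11A2* (-0.21 and -0.25), *SLC35B4* (-0.45 and -0.23), *SLC44A2* (-0.33) and *SLC1A4* (-0.45 and -0.51) shared the sign of the called one and did not pass. Conversely another probeset was called for *SLC44A1* (-0.40), *SLC7A6* (0.35) and *SLC6A17* (0.48) where the one that stands for the gene was not. In 11 further genes probesets differed in sign, none of them called: *SLC2A4RG*, *SLC31A1*, *SLC35C1*, *SLC35H1*, *SLC37A4*, *SLC38A10*, *SLC39A3*, *SLC39A8*, *SLC6A15*, *SLC7A1* and *SLC7A6OS*.

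**Figure D4:**
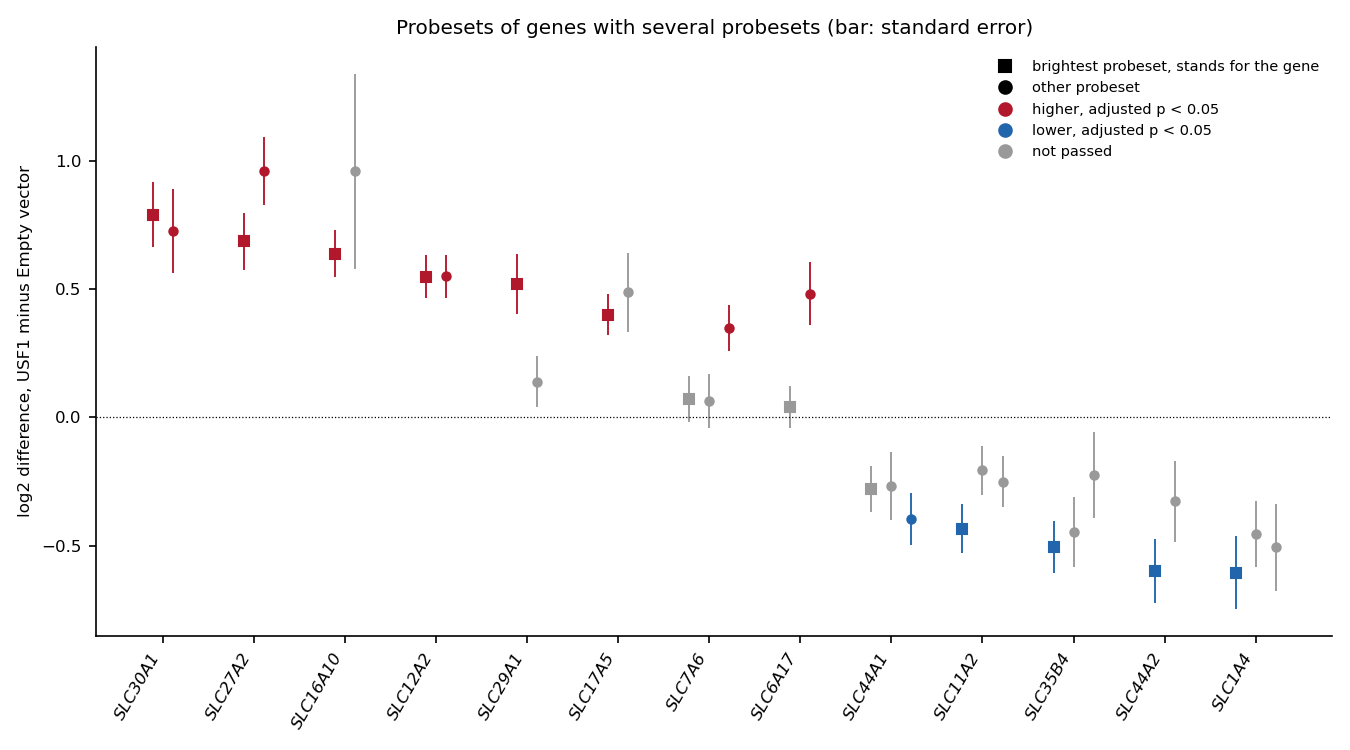
Log2 difference, USF1 minus Empty vector, of each probeset of 13 genes with several probesets, of which at least 1 passed. Squares are the probeset with the highest mean value, which stands for the gene, circles are the others, bars are standard errors, red marks a rise, blue a fall and grey no call. The probesets of *SLC30A1*, *SLC27A2* and *SLC12A2* are all red, and *SLC29A1* has 1 red and 1 grey.

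Transport genes whose symbols do not begin with SLC and a number were followed for context, from lists written from general knowledge. Some of them belong to solute carrier families under another symbol. Over all named genes limma called 5.19% higher and 8.89% lower, the background for each of these lists. At an unadjusted p-value under 0.05 it was 10.6% and 23.9%, and by the methods' t-test 9.7% and 19.8%. Of 25 measured carriers with other symbols 6 rose and 0 fell in limma (at an unadjusted p-value under 0.05, 7 and 2; by the methods' t-test, 7 and 2), with a median log2 difference of 0.05. The organic anion carrier *SLCO4A1*, which takes up thyroid hormones and prostaglandins, had 5.14, 4.86 and 4.76 in USF1 arrays, against 3.97, 3.99 and 3.89 in Empty vector arrays (difference 0.97, SE 0.11, adjusted p-value = 0.0031 from limma). *SPNS1*, which carries lysophospholipids out of lysosomes, differed by 0.75, the lysosomal *MFSD1* by 0.71 and *CTNS*, which carries cystine out of lysosomes, by 0.55. The first 3 of these were called whichever array was left out, and *CTNS* was lost only without USF1 replicate 1. *UNC93B1* (0.45) and *MPC1* (0.40) were the remaining rises. Whether each gene of the list, *UNC93B1* among them, encodes a carrier was not tested. The other MFSD genes of the list did not pass (*MFSD6* -0.45, *MFSD8* 0.05, *MFSD11* 0.10 and *MFSD12* 0.07).

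Of 12 P-type ion pumps 1 rose, the calcium pump *ATP2A3* (0.36), and 0 fell in limma (at an unadjusted p-value under 0.05, 4 higher and 1 lower; by the methods' t-test, 2 and 0). Its call was kept only when Empty vector replicate 1 was the array left out. Of 10 ABC transporters 1 rose, the mitochondrial *ABCB10* (0.41), and 0 fell in limma (at an unadjusted p-value under 0.05, 1 and 2; by the methods' t-test, 2 and 1). The call of *ABCB10* was lost without any 1 of 4 arrays, USF1 replicates 1 and 3 and Empty vector replicates 2 and 3. Of 18 partners and regulators of carriers, the scaffold *NHERF1*, which holds carriers at the apical membrane, rose (0.51) and the ubiquitin ligase *NEDD4* fell (-0.49). Either call was lost without USF1 replicate 1, USF1 replicate 3 or Empty vector replicate 2.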

How the data were processed

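Expression was measured in HEK293T cells on 6 Affymetrix arrays, grouped and numbered from their titles as 3 USF1 and 3 Empty vector arrays. The deposited values are log2 RMA expression values: the authors imported the arrays in R 2.8.0 with background subtraction and quantile normalization, masked probes that hit the wrong target or several, dropped probesets left with fewer than 7 probes or with over 50% absent calls, and applied ComBat to remove a batch effect. Which arrays formed a batch is not given in the sources, and genes those filters removed were not analysed here. The degrees of freedom in limma do not account for the ComBat correction, so its p-values may be too small. The number of arrays limits the precision.

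For each probeset the difference was fitted in R 4.3.3 (limma 3.58.1, lmFit and eBayes), without covariates, over all 16569 probesets (prior degrees of freedom 4.53). Genes were named through the platform annotation: 15099 probesets had 1 symbol, 570 several and 900 none, and 8 solute carrier probesets with several symbols were not used (1 of them called). All 144 members matched RefSeq by Entrez ID. Substrate classes follow family number. The members, classes and lists were chosen with earlier results of these data known. Named are the genes that passed, the gene of each class with the highest mean value (a rule of choice, not a ranking of levels), genes whose probesets disagreed and, from each list of related genes, up to 4 that passed. Further genes are named where they complete a family or the rises of a list, or nearly passed, chosen after their values were seen. The alternatives were the methods' t-test, other priors, array weights, centring, a further quantile normalization, leaving out the dimmest 25% of probesets, other choices of probeset, leaving out each array and a replicate block. Leaving out members that are not carriers was added after the data were seen. The fit was tested on simulated data.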

Additional observations from a re-analysis of the deposited data

How the results depend on the processing

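The main counts were 13 solute carriers higher and 10 lower, with a median log2 difference of 0.03. By the methods' t-test with equal variances, unadjusted, 22 were higher and 19 lower, and with unequal variances 20 and 18. With unequal variances *SLC10A3* and *SLC36A4* were lost. After Benjamini-Hochberg adjustment of the test with equal variances, 2 rose (*SLC12A2* and *SLC17A5*) and 0 fell, where limma called 10. Array weights gave 24 and 14, with 8.76% of named genes higher and 15.9% lower. Centring each array on its median gave 20 and 9, with a median of 0.0965, and a further quantile normalization gave 18 and 10, with a median of 0.0896. Leaving out each array in turn gave 5 to 20 higher, 0 to 11 lower and a median between 0.00431 and 0.0688. The lowest count of falls was without USF1 replicate 3 and the highest count of rises without Empty vector replicate 1. Leaving out the dimmest 25% of probesets left 108 members, of which 15 rose and 9 fell: 11 of the 13 rises and 8 of the 10 falls were again called, and *SLC27A6*, *SLC9B2*, *SLC22A15* and *SLC29A2* were among the genes no longer tested. An intensity trend or a robust prior, the probeset with the largest variance, a call at any probeset and leaving out genes that are not carriers each kept both counts within 1.5 times of 13 and 10. With the largest-variance probeset 11 of the 13 rises and 9 of the 10 falls were again called. Using only probesets that name 1 gene, another choice listed at the start, is what the main counts already do. Shares over all named genes were not computed for the adjusted t-test, the test with unequal variances or the further quantile normalization. Nor were they for the other priors, the set without the dimmest probesets or the other choices of probeset. Those counts therefore have no background beside them.

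The labels do not say whether same-numbered arrays were paired. Their deviations correlated by 0.096, 0.25 and 0.13, and all 3 USF1 arrays correlated best with their own number. The main fit used no pairing, and whether the arrays are paired could not be told. With a replicate block 17 rose and 15 fell, where 6.35% and 13.5% of named genes did. The 23 calls all held, and *SLC22A5*, *SLC43A1*, *SLC43A2* and *SLC75A1* were added higher and *SLC24A1*, *SLC30A4*, *SLC38A6*, *SLC40A1* and *SLC48A1* lower. Among related genes *ABCB10* was lost (adjusted p-value = 0.0593 from limma).

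Genes that were not called changed sign in places. The sign of *SLC37A4* turned with array weights (0.016), centring (0.033) and quantile normalization (0.033), that of *SLC38A2* with centring (0.024), that of *SLC39A8* with centring (0.023) and quantile normalization (0.017), and that of *SLC7A6OS* with array weights (-0.0398). With each array left out in turn, *SLC31A1* ranged between -0.063 and 0.068, *SLC35C1* between -0.21 and 0.043, *SLC35H1* between -0.055 and 0.099, *SLC37A4* between -0.11 and 0.011, *SLC38A10* between -0.012 and 0.12, *SLC39A3* between -0.165 and 0.00292, *SLC39A8* between -0.12 and 0.00164, *SLC5A6* between -0.021 and 0.12 and *SLC7A6OS* between -0.086 and 0.12. The cause was not tested. With 3 arrays against 3, an exact permutation test of a single gene cannot go below a 2-sided p-value of 0.1.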
